A study of Mus musculus with 3 samples.

Results

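Wnt signalling begins with a small set of genes that make, release and receive a lipid-modified protein, and 40 of them were followed here across 3 libraries of mouse embryonic skull mesenchyme. They were taken by name from the 43280 genes of each count table: the 19 Wnt ligands, the 10 Frizzled receptors, the co-receptors Lrp5, Lrp6, Ror1, Ror2 and Ryk, the secretion genes Wls and Porcn, and Rspo1 to Rspo4. RNA came from primary cells of skeletal mesenchyme at E15.5, which the series calls calvarial, with 1 library for each genotype of Ctnnb1, the gene of beta-catenin. The dTF-cKO carried beta-catenin fx/dm and Dermo1-Cre, the cKO carried beta-catenin fx/fx and Dermo1-Cre, and the control was beta-catenin fx/fx with no Cre in its label. All 3 thus carried at least 1 floxed (fx) allele. The label does not say what dm is; an allele so named in mouse work codes for a beta-catenin that still serves adhesion but not transcription. Dermo1-Cre is expressed from the Twist2 locus in mesenchymal progenitors, so epithelium, endothelium and blood are not its target cells. No library carried fx/dm in the absence of Cre, and neither embryo number nor pooling is stated in the labels. With 1 library for a genotype, no difference has a replicate check and no genotype was tested. Every interval below is a 95% interval for counting error only.

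A Wnt protein is given a lipid by Porcn in the endoplasmic reticulum and is carried to the cell surface by Wls. Outside, it binds a Frizzled together with Lrp5 or Lrp6, which stabilises beta-catenin for transcription with TCF/LEF factors, or together with Ror1, Ror2 or Ryk, which signal without beta-catenin. R-spondins keep Frizzleds at the membrane by blocking the ligases Rnf43 and Znrf3. In the head, Wnts from the surface ectoderm and from the mesenchyme itself act on bone and dermal progenitors, and the canonical branch is needed for the bone fate. The genes described here lie upstream of beta-catenin, the step that was targeted.

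The libraries held 2905264 counts in the dTF-cKO, 2678457 in the cKO and 3634819 in the control. Levels are given in CPM, counts divided by library size after TMM scaling and given per 1e6, and a count of 0 allows up to 1.07, 1.06 and 0.839 CPM in the dTF-cKO, cKO and control (3 counts). Ctnnb1 stood at 442, 745 and 1026 CPM in the same order, from counts that do not separate its alleles. The 14 osteoblast markers and the 10 cranial mesenchyme markers all had counts in every library. Their sums were lower in the Cre-carrying libraries, at 10717, 43452 and 197234 CPM for osteoblast and 279, 817 and 1278 CPM for cranial mesenchyme. For the 18 epidermis markers the sums were 13711 CPM (dTF-cKO) and 23851 CPM (cKO), against 168 in the control, where Dsg3, Ivl and Grhl3 were at 0. Sex-linked RNA also differed with genotype: Xist had 2 and 0 counts in the dTF-cKO and cKO and 1233 in the control, so sex and Cre cannot be told apart. In bulk RNA, fewer cells of a type and less RNA in each cell cannot be told apart.

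Of the 40 genes, 33 reached the expression floor, a mean of 5 CPM over the libraries, and 7 did not. Wnt16 passed narrowly at 5.58 CPM, and Porcn (4.51 CPM) and Wnt3a (4.27 CPM) fell just short. The floor let in Wnt3, Wnt7a, Wnt10a and Wnt16 although the control had less than 5 CPM of each, so these 4 passed through the Cre-carrying libraries and had to be higher in at least 1 of them. A gene was called higher or lower when its log2 difference, with a prior count of 2, was at least 1 in size. In the dTF-cKO against the control, 7 of the 33 were higher (21.2%, against 19.5% of all 12127 measured genes) and 13 lower (39.4%, against 20.9%). In the cKO against the control, 9 were higher (27.3%, against 9.66%) and 2 lower (6.06%, against 6.78%). In the dTF-cKO against the cKO, 5 were higher (15.2%, against 14.5%) and 14 lower (42.4%, against 20.5%). The share that was higher in the dTF-cKO was near the background in both of its comparisons. Among the 29 members with at least 5 CPM in the control, 4 were higher (13.8%, against 15.6% of all 11354 genes so filtered) and 13 lower (44.8%, against 22.1%) in the dTF-cKO. In the cKO, 5 of the 29 were higher (17.2%, against 5.27%) and 2 lower (6.90%, against 7.2%). Comparisons that share a library are not independent of each other.

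Which of the lower genes stayed low depended on what the libraries were scaled to. A stroma scaling was tried as an alternative: it sets to 0 the median difference of 51 measured connective tissue and vessel genes (dermis, meninges, endothelium, pericyte and smooth muscle). These include genes of mesenchymal tissue, where Dermo1-Cre acts, so the reference can itself differ with genotype. Its sums did not move as 1 group: endothelium was at 335 CPM in the dTF-cKO and 1227 in the control, pericyte and smooth muscle at 1607 and 1096. Which scaling is nearer the truth was not tested. The stroma scaling moved every log2 difference of the dTF-cKO against the control by 2.01 and against the cKO by 1.78, and those of the cKO against the control by -0.29. Under it, 20 of the 33 were higher in the dTF-cKO against the control (60.6%, against 79.3% of all measured genes) and 4 lower (12.1%, against 3.8%). Against the cKO, 19 were higher (57.6%, against 74.6%) and 4 lower (12.1%, against 4.25%). In the cKO against the control, 9 were higher (27.3%, against 7.12%) and 4 lower (12.1%, against 10.3%). Fzd4, Fzd9, Rspo2 and Wnt5b were still at least 2-fold lower in the dTF-cKO against the control, with log2 differences of -1.59, -1.10, -1.36 and -1.84. These calls rest on 4, 4, 1 and 1 counts in the dTF-cKO. With a prior count of 10 their TMM log2 differences were -2.57, -2.14, -1.85 and -2.25, beside the shift of 2.01. Under the stroma scaling, Wnt2b, Ror1, Ror2 and Rspo3 were lower by less than 2-fold, at -0.78, -0.49, -0.48 and -0.24. Fzd1, Fzd2, Fzd5 and Fzd8 changed sign and stood at 0.92, 0.32, 0.89 and 0.18. Wnt2 stood at 0.020, which amounts to no difference, and its ratio without the prior count lay just below the stroma median. The ligands that were higher stayed higher: the log2 difference of Wnt7b was 6.87 in the dTF-cKO and 3.05 in the cKO, and that of Wnt6 was 6.09 and 1.66. In the cKO against the control, Ror2 and Rspo1 were at -1.35 and -1.30, and Fzd5 and Wnt5b joined them past the 2-fold line at -1.11 and -1.21. Values below are with TMM scaling unless stated.

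**Figure D1:**
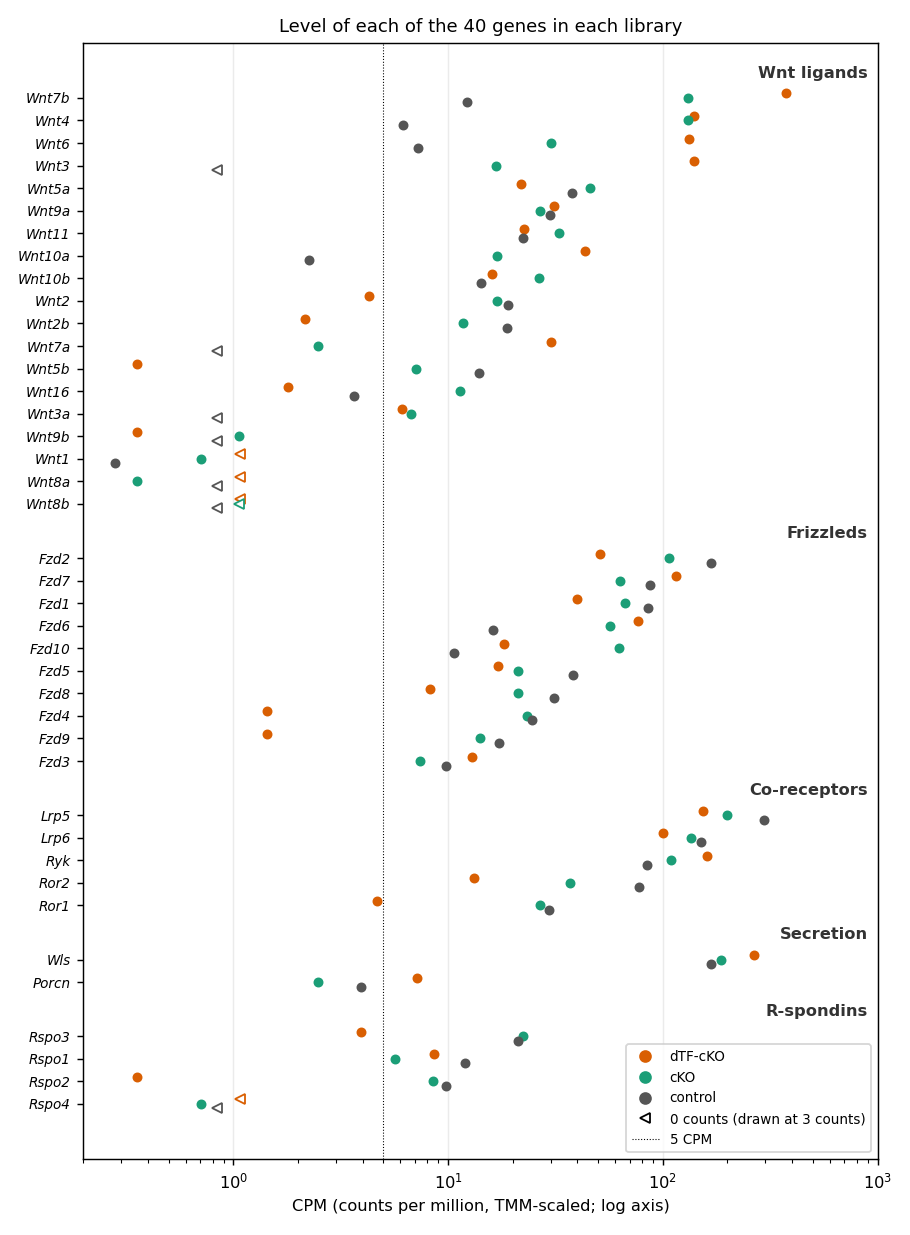
Level of each of the 40 genes (rows, grouped by role and ordered by mean level) in the dTF-cKO, cKO and control library, in CPM on a log axis. Open triangles mark 0 counts and are drawn at the 3-count limit, and the dotted line is the floor of 5 CPM. Wnt7b, Wnt4, Wnt6 and Wnt3 lie far above the control in the Cre-carrying libraries, whereas Wnt5b, Fzd4, Fzd9 and Rspo2 lie far below it in the dTF-cKO.

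Ligands showed the widest differences. Summed, they stood at 966 CPM (dTF-cKO) and 515 CPM (cKO), against 188 CPM (control). The sum was 5.14-fold (4.72 to 5.60) and 2.74-fold (2.50 to 3.01) that of the control. The excess lay in 5 genes that were picked out after their values were seen: Wnt3, Wnt4, Wnt6, Wnt7b and Wnt10a. Together they took 85.9% of ligand counts in the dTF-cKO (84.5% to 87.2%), 63.1% in the cKO (60.5% to 65.6%) and 14.9% in the control (12.3% to 17.8%). The other 14 ligands summed to 136, 190 and 160 CPM in the same order with TMM scaling. Their smaller spread follows in part from how the 5 were picked. The sum also joins opposite differences: Wnt7a had 84, 7 and 0 counts and Wnt5b 1, 20 and 50. The stroma scaling moves log2 differences of the dTF-cKO against the control by 2.01. The dTF-cKO sum is thus near that of the control with TMM scaling but not with the stroma scaling. Shares within a library do not depend on how libraries are scaled to each other.

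Wnt7b, a ligand of skin, lung and bone, took the largest share of ligand counts in the dTF-cKO. It had 1045 counts in the dTF-cKO, 369 in the cKO and 44 in the control, or 373, 131 and 12.3 CPM. Relative to the control its level was 30.3-fold (22.4 to 42.0) and 10.6-fold higher (7.74 to 14.8), and the dTF-cKO was 2.86-fold above the cKO (2.54 to 3.23). Wnt7b took 38.7% of ligand counts in the dTF-cKO (36.8% to 40.5%), 25.3% in the cKO (23.1% to 27.6%) and 6.55% in the control (4.80% to 8.69%). Wnt4, a ligand of kidney, gonad and epidermis, had 393, 370 and 22 counts. The ratio of dTF-cKO to cKO was 1.07 (0.928 to 1.24), though 1.88 on the log2 scale under the stroma scaling, while each library was above the control, at 22.8-fold (14.9 to 36.8) and 21.3-fold (13.8 to 34.4).

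Wnt3 and Wnt6 set the Cre-carrying libraries apart from each other. Wnt3, which in the mouse acts from gastrulation on and later in the ectoderm, had 389 counts in the dTF-cKO, 47 in the cKO and 0 in the control. It was at least 166-fold and at least 19.8-fold higher than in the control, with the 0 set to 3 counts, and the dTF-cKO was 8.36-fold above the cKO (6.17 to 11.6). Wnt6, a ligand of surface ectoderm, had 372, 85 and 26 counts in the dTF-cKO, cKO and control. Its ratios to the control were 18.3 (12.3 to 28.3) and 4.13 (2.64 to 6.69), and that of dTF-cKO to cKO was 4.42 (3.48 to 5.66). Wnt10a, a ligand of teeth, hair and other ectodermal organs, had 122, 48 and 8 counts. Its order of libraries was that of Wnt6, with ratios of 19.5 (9.58 to 46.1) and 7.59 (3.56 to 18.6) to the control and of 2.57 (1.82 to 3.66) between the Cre-carrying libraries. Wnt7a, a ligand of limb ectoderm and neural tissue, had 84 counts in the dTF-cKO, 7 in the cKO and 0 in the control. With the 0 set to 3 counts the dTF-cKO was 35.8-fold above the control, with a 95% lower limit of 28.5. The ratio of dTF-cKO to cKO was 12.1 (5.63 to 31.1). The cKO, 2.95-fold above the control by the same rule, rests on 7 counts. Its 95% lower limit was 1.82, and with a prior count of 10 its log2 difference was 0.82, under the 2-fold line.

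The higher ligands stood beside higher epidermal markers. Of the 18 epidermis markers, 18 were at least 2-fold higher than in the control in the dTF-cKO and 17 in the cKO, with median log2 differences of 5.80 and 6.65. Between the Cre-carrying libraries the list did not move as 1 group. Krt14, a keratin of the basal layer, had 5788 counts in the dTF-cKO and 3047 in the cKO, a ratio of 1.92 (1.84 to 2.01). Krt1, of the upper layers and chosen after its values were seen, had 102 counts in the dTF-cKO and 16591 in the cKO. Trp63, the epidermal master regulator, had 225 and 275 counts in the dTF-cKO and cKO and 2 in the control. The 5 ligands summed to 829, 325 and 28.0 CPM in the dTF-cKO, cKO and control. The part of epidermal cells in these levels was not tested. The 4 melanocyte markers that were measured had a median log2 difference of 2.26 in the dTF-cKO and 3.30 in the cKO against the control. Neural markers, of which 7 of 10 were measured, had medians of -1.09 and -1.11, of which the stroma scaling turned that of the dTF-cKO to 0.92. Wnt1 and Wnt8b, ligands of the embryonic brain, had at most 2 counts in any library.

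**Figure D2:**
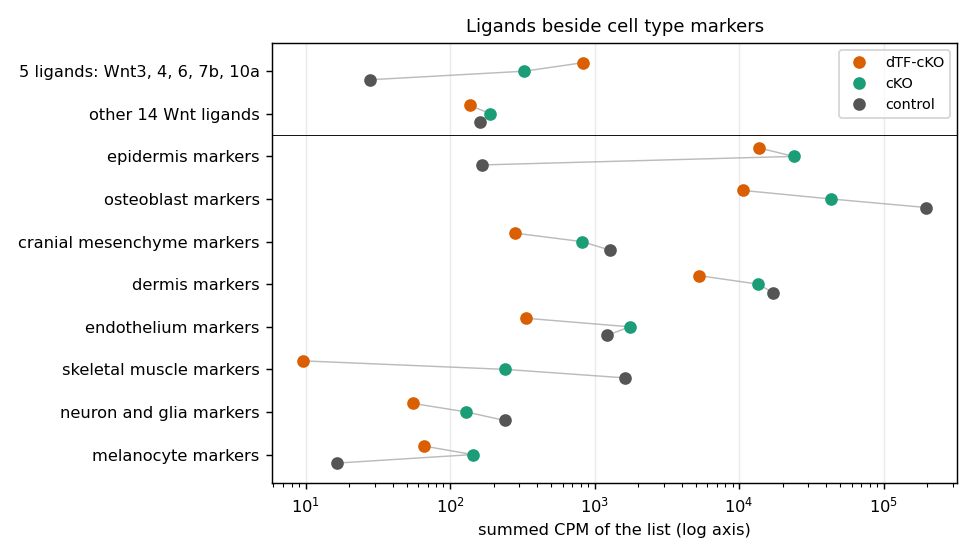
Summed level of the 5 ligands Wnt3, Wnt4, Wnt6, Wnt7b and Wnt10a, of the other 14 ligands and of 8 marker lists (rows) in the dTF-cKO, cKO and control library, in TMM-scaled CPM on a log axis. The 5 ligands and the epidermis and melanocyte markers are lowest in the control. The osteoblast, mesenchyme, dermis, muscle and neural markers are highest there. The sums of the other ligands lie close together with this scaling.

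Promoter sequences are shown for 3 of the ligands that were higher in both Cre-carrying libraries and for Ror2, a receptor gene that was lower in both, to set the start regions of genes that differed in the same direction beside those of a gene that differed in the other. Each runs 5′ to 3′ on the gene's strand from 250 bases before the annotated start to 30 after it (RefSeq, GRCm38.p6). Wnt3 is at chr11:103773925-103774204 on the plus strand, Wnt4 at chr4:137277385-137277664 (plus), Wnt6 at chr1:74771642-74771921 (plus) and Ror2 at chr13:53286095-53286374 (minus). Capitals mark a TCF/LEF word, the sequence that these partners of beta-catenin bind.
Wnt3: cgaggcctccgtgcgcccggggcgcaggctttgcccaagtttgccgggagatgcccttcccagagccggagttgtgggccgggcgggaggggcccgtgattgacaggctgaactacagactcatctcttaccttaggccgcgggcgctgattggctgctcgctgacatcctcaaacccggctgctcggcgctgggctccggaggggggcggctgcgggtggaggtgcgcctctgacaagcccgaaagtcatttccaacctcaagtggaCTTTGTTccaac
Wnt4: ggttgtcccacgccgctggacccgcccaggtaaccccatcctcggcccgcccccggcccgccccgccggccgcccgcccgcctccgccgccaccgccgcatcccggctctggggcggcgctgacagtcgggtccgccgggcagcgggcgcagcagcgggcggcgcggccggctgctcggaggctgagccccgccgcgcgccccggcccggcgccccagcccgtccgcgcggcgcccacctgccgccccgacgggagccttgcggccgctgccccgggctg
Wnt6: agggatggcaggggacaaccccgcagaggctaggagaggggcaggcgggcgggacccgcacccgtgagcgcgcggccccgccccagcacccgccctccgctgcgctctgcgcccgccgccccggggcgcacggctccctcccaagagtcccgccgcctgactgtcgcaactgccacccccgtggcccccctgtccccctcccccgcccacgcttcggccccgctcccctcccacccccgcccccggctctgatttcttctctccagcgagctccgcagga
Ror2: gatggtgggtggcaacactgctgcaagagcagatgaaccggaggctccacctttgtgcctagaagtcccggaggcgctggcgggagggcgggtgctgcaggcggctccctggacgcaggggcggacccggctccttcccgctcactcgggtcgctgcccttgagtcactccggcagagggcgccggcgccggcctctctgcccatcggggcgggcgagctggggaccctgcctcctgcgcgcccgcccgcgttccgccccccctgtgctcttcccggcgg
The search covered either strand for the word CTTTGAA, next for CTTTGAT, then for CTTTGTA and last for CTTTGTT. In windows of 300 bases, 250 before to 50 after the start, 16.9% of 32851 RefSeq windows held at least 1. Windows were found for 27 of the 40 genes, 30 windows in all, and 4 of them held a word (13.3%), in Wnt3, Wnt5b, Wnt11 and Fzd7. That of Wnt3, CTTTGTT, lay from base 19 to base 25 after the start. Of these 4 genes only Wnt3 was at least 2-fold higher in both Cre-carrying libraries, under TMM and stroma scaling alike. No window was found for Wnt5a, Wnt7b, Wnt8a, Wnt10a, Fzd2, Fzd3, Fzd6, Fzd8, Lrp5, Lrp6, Porcn, Rspo2 and Rspo3. The search thus leaves out Wnt7b, the ligand with the largest share in the dTF-cKO, and Wnt10a. Wnt7a, also higher in both Cre-carrying libraries, had a window with 0 words and is not printed. The member windows were rich in G and C, with a median of 70.8% against 52.7% over all windows, and held a median of 30 CpG pairs against 7. Wnt4 had the most of the 4 shown, with 84.3% and 51, and Wnt3 the least, with 65.7% and 24.

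Several ligand genes lie side by side in the genome, and the neighbours were not always alike. On chromosome 1, Wnt6 and Wnt10a lie on the same strand with 6.2 kb and no protein-coding gene between them, and both were higher in the 2 Cre-carrying libraries. On chromosome 11, Wnt3 and Wnt9b start 24.3 kb apart and run away from each other. Wnt9b had 1, 3 and 0 counts in the dTF-cKO, cKO and control, so Wnt3 alone of that couple was abundant. Wnt3a and Wnt9a, also on chromosome 11 and 16.2 kb apart, split in another way: Wnt3a had 17, 19 and 0 counts, and Wnt9a 87, 76 and 107. The ratio of Wnt9a to the control was 1.04 in the dTF-cKO (0.773 to 1.39) and 0.898 in the cKO (0.660 to 1.22). On chromosome 15, Wnt10b had 45, 75 and 51 counts while Wnt1, 11.7 kb away, had 0, 2 and 1. All distances are from the GENCODE annotation of mm10.

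Among the other 14 ligands, Wnt5a, the main ligand of the Ror receptors in limb and face mesenchyme, had 61 counts in the dTF-cKO, 129 in the cKO and 135 in the control. With TMM scaling it was within 2-fold of the control in either library, but the stroma scaling put the dTF-cKO above it (log2 difference 1.24, against -0.78 with TMM). The dTF-cKO was 2.09-fold below the cKO (1.53 to 2.89), but above it under the stroma scaling (0.74), and missed the 2-fold line with DESeq2 size factors (-0.98) and with a prior count of 10 (-0.96). Wnt5b, its close relative, had 1, 20 and 50 counts. In the dTF-cKO it lay 39.1-fold under the control (6.71 to 1577) and 19.8-fold under the cKO (3.17 to 821), wide intervals that rest on the single count. Wnt2 had 12, 48 and 68 counts and Wnt2b 6, 33 and 67. These related ligands were 4.44-fold (2.38 to 9.005) and 8.74-fold lower (3.81 to 24.7) against the control in the dTF-cKO, the first with no difference left under the stroma scaling, whereas in the cKO they were within 2-fold. Wnt16, which acts on cortical bone, had 5, 32 and 13 counts and was highest in the cKO, by 3.11-fold over the control (1.59 to 6.46) and 6.34-fold over the dTF-cKO (2.45 to 20.8). Under the stroma scaling the dTF-cKO was less than 2-fold below the cKO (-0.52, log2) and above the control (1.20). The cKO stayed above the control (1.19). Wnt9a, Wnt10b and Wnt11 were within 2-fold in each of the 3 comparisons with TMM scaling. Under the stroma scaling they were more than 2-fold higher in the dTF-cKO against the control (2.07, 2.18 and 2.02, log2). These values were near the median of all measured genes (2.07).

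Per kilobase of exon, the order of the ligands differed between libraries. Wnt7b led in the dTF-cKO at 76.2 CPM per kb, followed by Wnt6 at 60.6, Wnt3 at 45.2 and Wnt4 at 33.5. In the cKO, Wnt4 led at 31.2 CPM per kb and Wnt7b followed at 26.7. The control was led by Wnt9a at 8.99 and Wnt2 at 8.44 CPM per kb, with Wnt11 next at 5.41.

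**Figure D3:**
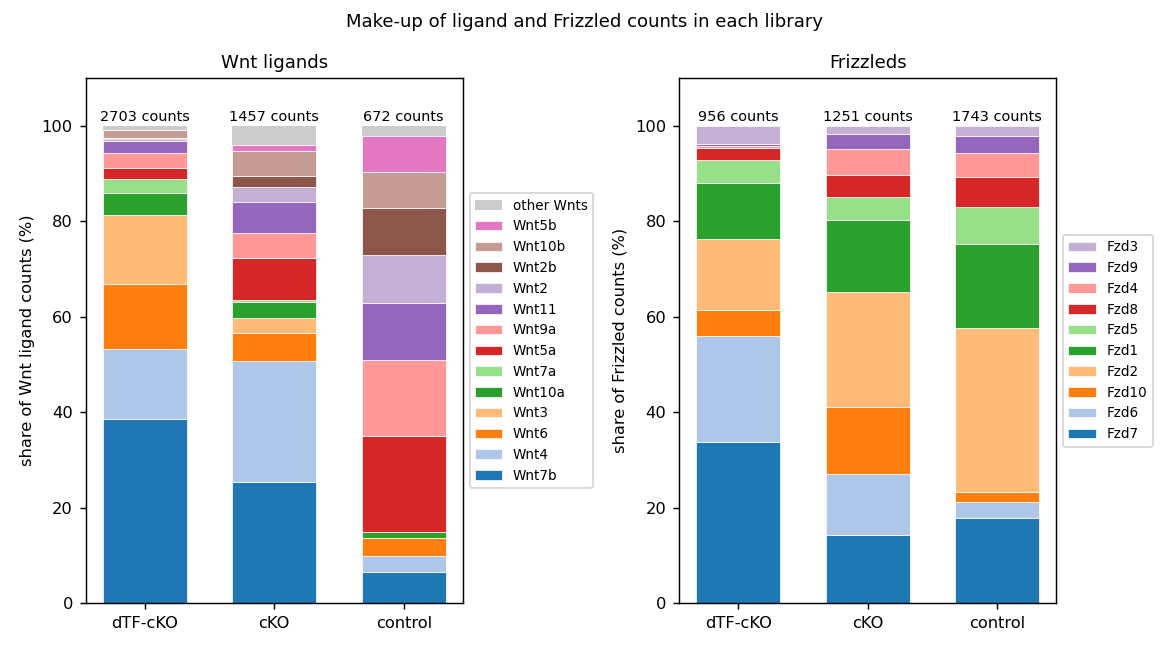
Share of Wnt ligand counts (left) and of Frizzled counts (right) taken by each gene in the dTF-cKO, cKO and control library, in percent of the number of family counts printed above each bar. Wnt7b, Wnt4, Wnt6, Wnt3 and Wnt10a fill 85.9%, 63.1% and 14.9% of the ligand bars, and Fzd7 takes 33.7%, 14.2% and 17.8% of the Frizzled bars.

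The receptors did not mirror the ligands. The 10 Frizzleds summed to 342, 443 and 488 CPM in the dTF-cKO, cKO and control, so the sum varied by less than 2-fold; under the stroma scaling the dTF-cKO sum was 2.83-fold that of the control. Every Frizzled had counts in every library. In the dTF-cKO against the control 1 was higher and 6 were lower (all measured genes: 19.5% and 20.9%). In the cKO against the control 2 were higher and 0 lower (all: 9.66% and 6.78%). In the dTF-cKO against the cKO 0 were higher and 5 lower (all: 14.5% and 20.5%). Under the stroma scaling these became 4 and 2, 2 and 1, and 5 and 2. The shares of all measured genes were then 79.3% and 3.8%, 7.12% and 10.3%, and 74.6% and 4.25%.

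Fzd6, a receptor of planar polarity in skin and hair, was the only Frizzled past the 2-fold line upward in both Cre-carrying libraries, joined by Fzd10 under the stroma scaling. It had 214 counts in the dTF-cKO, 160 in the cKO and 58 in the control, and its ratio to the control was 4.71 (3.51 to 6.41) and 3.49 (2.57 to 4.80). Fzd10 had 51, 177 and 38 counts and peaked in the cKO, at 5.89-fold over the control (4.13 to 8.60) and 3.44-fold over the dTF-cKO (2.50 to 4.79), the second of which vanished under the stroma scaling (0.035 for the dTF-cKO against the cKO, log2). In the dTF-cKO it was 1.71-fold above the control (1.10 to 2.68). Fzd7, a receptor of many progenitor cells, had 322, 178 and 311 counts and was within 2-fold in all 3 comparisons with TMM scaling, though not in the dTF-cKO under the stroma scaling (2.41 against the control, log2). As a share of Frizzled counts it was 33.7% in the dTF-cKO (30.7% to 36.8%), 14.2% in the cKO (12.3% to 16.3%) and 17.8% in the control (16.1% to 19.7%).

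Fzd2, which pairs with Wnt5a and Ror2 in mesenchyme, was the leading Frizzled of the control and of the cKO. It had 143 counts in the dTF-cKO, 301 in the cKO and 598 in the control, or 13.9, 29.1 and 45.7 CPM per kb. Against the control it was 3.27-fold (2.72 to 3.96) and 1.57-fold lower (1.37 to 1.81), the first with the opposite sign under the stroma scaling. Its share of Frizzled counts was 14.96% (12.8% to 17.4%), 24.1% (21.7% to 26.5%) and 34.3% (32.1% to 36.6%) in the dTF-cKO, cKO and control, an order that no scaling between libraries alters. Per kilobase, Fzd7 and Fzd6 led the dTF-cKO at 25.4 and 15.9 CPM per kb. Fzd1 had 111, 188 and 306 counts, Fzd5 had 48, 60 and 136, and Fzd8 had 23, 60 and 111. In the dTF-cKO these lay 2.16-fold (1.73 to 2.71), 2.22-fold (1.59 to 3.15) and 3.78-fold (2.40 to 6.21) under the control, and over it with the stroma scaling.

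With TMM scaling the largest fold differences among Frizzleds were in Fzd4 and Fzd9. Fzd4, the Norrin receptor of blood vessels, had 4 counts in the dTF-cKO, 66 in the cKO and 88 in the control. The dTF-cKO was 17.2-fold below the control (6.49 to 64.6), while the cKO was at 0.948 of the control (0.679 to 1.32). Fzd9, a receptor of osteoblasts and brain, had 4, 40 and 62 counts and was 12.1-fold lower against the control in the dTF-cKO (4.51 to 45.9), with the cKO at 0.816 of the control (0.534 to 1.23). In both genes the dTF-cKO stood apart and the cKO was not distinguishable from the control at this depth. The 17 endothelial markers summed to 335, 1746 and 1227 CPM in the dTF-cKO, cKO and control, with 0 of them at 0 counts in any library. The part of vessels in the level of Fzd4 was not tested. Fzd3, a polarity receptor, had 36, 21 and 35 counts and was within 2-fold in all 3 comparisons with TMM scaling. Under the stroma scaling the dTF-cKO was above the control (2.39, log2) and above the cKO (2.52).

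Lrp5 and Lrp6 are the co-receptors of beta-catenin signalling. Lrp5 had 431 counts in the dTF-cKO, 561 in the cKO and 1061 in the control, and Lrp6 had 280, 382 and 539. Against the control, Lrp5 was 1.93-fold (1.72 to 2.16) and 1.496-fold lower (1.35 to 1.66) in the dTF-cKO and cKO, and Lrp6 1.51-fold (1.302 to 1.75) and 1.12-fold lower (0.977 to 1.28), with the dTF-cKO above the control under the stroma scaling. Neither passed the 2-fold rule in any comparison with TMM scaling. Ryk, an atypical Wnt receptor kinase, had 450, 307 and 302 counts and was 1.90-fold above the control in the dTF-cKO (1.64 to 2.21).

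The Ror receptors carry Wnt5a signals in bone and limb mesenchyme. Ror2 had 37 counts in the dTF-cKO, 104 in the cKO and 277 in the control. It was the only one of the 10 Frizzleds and 5 co-receptors past the 2-fold line downward in both libraries against the control, at 5.86-fold (4.15 to 8.50) and 2.11-fold lower (1.68 to 2.66; the cKO missed the line at a log2 difference of -0.96 when scaled to library totals), and the dTF-cKO was 2.78-fold below the cKO (1.90 to 4.17), or above it under the stroma scaling (0.35, log2). Ror1 had 13, 76 and 105 counts. The dTF-cKO lay 6.32-fold under the control (3.54 to 12.3), and in the cKO its ratio to the control was 0.915 (0.672 to 1.24). Of the 10 cranial mesenchyme markers, Pdgfra had 119, 621 and 1212 counts and Prrx1 114, 598 and 1146. Not all had this order: Twist1 was at 125, 106 and 165 CPM, Msx2 at 33.2, 17.3 and 20.4 CPM, Foxc1 at 14.3, 58.7 and 52.0 CPM, and Tbx18 at 1.43, 15.6 and 13.99 CPM (these 4 were named after their values were seen). The part of fewer mesenchymal cells in these levels was not tested.

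Secretion genes were present in all 3 libraries. Wls had 745, 528 and 597 counts in the dTF-cKO, cKO and control, and its ratio to the control was 1.59 (1.43 to 1.78) and 1.12 (0.993 to 1.26). Porcn, under the floor, had 20, 7 and 14 counts. The ligand sum thus differed between libraries by more than the carrier of ligands did. R-spondins were scarce. Rspo3, the main R-spondin of vessels and mesenchyme, had 11, 63 and 76 counts with the dTF-cKO 5.41-fold below the control (2.86 to 11.3) and 5.67-fold below the cKO (2.96 to 11.9). Rspo2, which acts in limb and face outgrowth, had 1, 24 and 35 counts with the dTF-cKO 27.4-fold below the control (4.61 to 1113). Rspo1 went another way, with 24, 16 and 43 counts: the cKO was 2.13-fold below the control (1.17 to 4.04), but under 2-fold with scaling to totals (-0.91, log2) and with a prior count of 10 (-0.78), while the dTF-cKO was at 0.713 of it (0.414 to 1.20). The genes under the floor were Wnt1, Wnt3a, Wnt8a, Wnt8b, Wnt9b, Porcn and Rspo4. Wnt3a, at 17, 19 and 0 counts, was at least 7.24-fold and at least 8.01-fold above the control. Wnt8a and Rspo4 had 0, 1 and 0 and 0, 2 and 0 counts in the dTF-cKO, cKO and control.

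**Figure D4:**
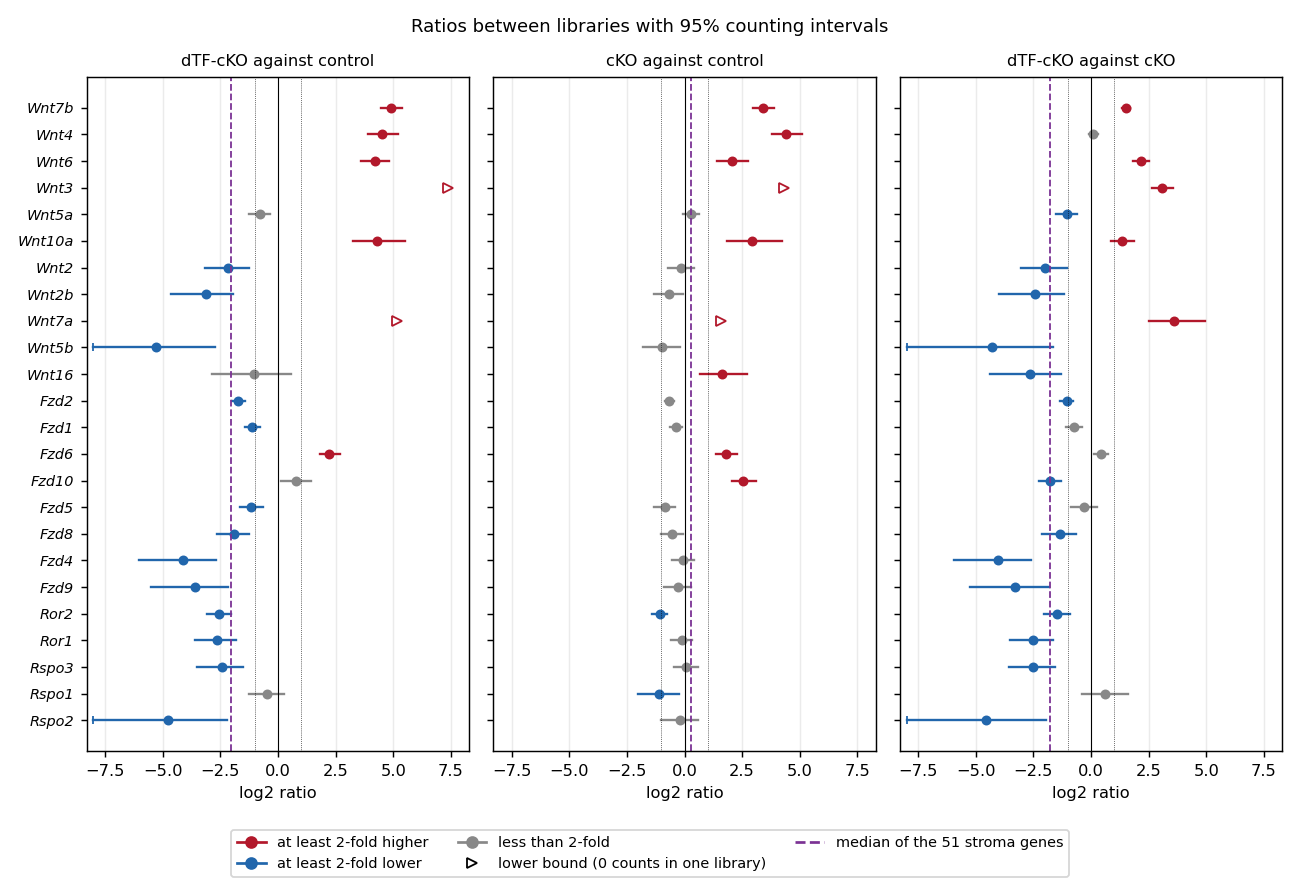
Log2 ratio of scaled counts for the 24 genes that were at least 2-fold different, with a counting interval that excludes 1, in at least 1 of the 3 comparisons (panels). Bars are 95% counting intervals, cut at -8; open triangles are lower bounds against 3 counts; colours follow the log2 difference with a prior count of 2. The dashed line is the median log2 difference of 51 stroma genes, at -2.01 in the left, 0.29 in the middle and -1.78 in the right panel. Fzd4, Fzd9, Rspo2 and Wnt5b lie left of it in both panels for the dTF-cKO, as do Ror1, Rspo3, Wnt2b and, close to it, Wnt2.

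Other genes of the pathway were read from 4 lists written down for this purpose. Beside their counts stand those of all measured genes: 19.5% higher and 20.9% lower in the dTF-cKO against the control. In the cKO against the control these were 9.66% and 6.78%. Under the stroma scaling 79.3% were higher and 3.8% lower in the dTF-cKO against the control, with a median log2 difference of 2.07. Of 5 genes for receptor turnover and R-spondin reception, 1 was higher and 1 lower in the dTF-cKO against the control (median log2 difference -0.44), or 4 and 0 under the stroma scaling (median 1.57), and 1 was higher and 0 lower in the cKO (median 0.39). Rnf43, a ligase that clears Frizzleds from the membrane, had 109 counts in the dTF-cKO, 51 in the cKO and 13 in the control. It was higher in both, at 10.7-fold (6.01 to 20.8) and 4.96-fold (2.66 to 9.94). Lgr6 and Lgr5, receptors of R-spondins, had 3, 44 and 42 and 8, 27 and 19 counts. Lgr6 was thus lower in the dTF-cKO, at 11.0-fold below the control (3.50 to 55.3), but did not pass the 2-fold rule under the stroma scaling.

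Of 17 secreted antagonists in the list, 12 were measured. In the dTF-cKO against the control 1 was higher and 10 lower, with a median log2 difference of -2.40 that became -0.39 (2 higher, 3 lower) under the stroma scaling, and in the cKO 3 were higher and 5 lower (median -0.48). Over all measured genes the medians were 0.06 in both comparisons with the control, and 2.07 in the dTF-cKO under the stroma scaling. Sfrp2 and Sfrp1, which bind Wnts, were 5.45-fold (4.95 to 6.02) and 5.56-fold lower (4.23 to 7.41) against the control in the dTF-cKO, and within 2-fold of it in the cKO. Dkk3, a relative of the Lrp5 and Lrp6 inhibitors, was 6.97-fold (5.58 to 8.81) and 2.57-fold lower (2.22 to 2.99) in the dTF-cKO and cKO. These 3 are the most abundant antagonists that passed the 2-fold rule with TMM scaling. Under the stroma scaling each was less than 2-fold lower than the control in the dTF-cKO.

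Of 19 cytoplasmic and nuclear genes, all measured, 1 was higher and 6 lower in the dTF-cKO against the control (median -0.31). Under the stroma scaling these became 13 and 1 (median 1.70), beside 79.3% and 3.8% of all measured genes (median 2.07). In the cKO 1 was higher and 1 lower (median -0.15). Besides Ctnnb1, the most abundant past the rule were Csnk1a1, a kinase that marks beta-catenin for destruction, at 2.10-fold above the control in the dTF-cKO (1.91 to 2.31), and Bcl9l, a co-factor of beta-catenin, at 2.47-fold below it (2.02 to 3.05), or above it under the stroma scaling. Of 12 planar polarity genes, 11 were measured, with 3 higher and 4 lower in the dTF-cKO against the control (7 and 2 under the stroma scaling; median 0.21, or 2.22) and 2 higher and 0 lower in the cKO (median 0.16). Celsr1, a polarity cadherin of skin, had 1189, 379 and 118 counts in the dTF-cKO, cKO and control with ratios to the control of 12.9 (10.6 to 15.7) and 4.06 (3.30 to 5.04). The related genes Daam1 and Daam2, which link Dishevelled to actin, went opposite ways. Daam1 had 291, 143 and 98 counts and was 3.79-fold above the control in the dTF-cKO (3.01 to 4.82), while Daam2 had 23, 227 and 452 and was 15.4-fold below it (10.1 to 24.5).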

How the data were processed

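Per the labels, polyA RNA was extracted with an RNeasy Plus mini kit and libraries were made with the Ion Total RNA-Seq Kit v2, and per the submitters' processing notes the build was mm10. Aligner, counter, annotation, strand setting, pooling: each was not given in the sources used here. The authors deposited raw read counts per gene symbol, 1 table for each library. TMM factors were computed in edgeR 4.0.16 under R 4.3.3 and were 0.963, 1.06 and 0.984 in the dTF-cKO, cKO and control. Log2 differences used a prior count of 2. Ratios are of scaled counts, with exact conditional (Clopper-Pearson) 95% intervals; shares have exact binomial intervals. Amplified reads without molecular tags need not be separate molecules, and these intervals and the floors hold counting error alone. A 0 was set to 3 counts for a bound. Exon lengths and positions came from GENCODE vM21 (GRCm38), and promoters from RefSeq (GRCm38.p6). The calls and intervals were checked on simulated counts. Members, lists and alternatives were chosen with earlier results of these data known. Genes with full values were those at least 2-fold different with an interval excluding 1 in at least 1 comparison; the others are given by range or counts, and up to 3 genes of each pathway list were taken by abundance. Figures were drawn with matplotlib 3.10.9 in Python 3.11.15.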

Additional observations from a re-analysis of the deposited data

How the results depend on the processing

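Counts of genes past the 2-fold rule were within 1.5 times the reported ones under each alternative, except those named here. With the stroma scaling the counts in the dTF-cKO against the control were 20 higher and 4 lower (79.3% and 3.8% of all measured genes), those in the dTF-cKO against the cKO 19 and 4 (74.6% and 4.25%), and 4 were lower in the cKO against the control (10.3%). For those lower genes of the cKO, of which 2 are reported, scaling to library totals gave 0, a prior count of 10 gave 1 and a floor of 20 CPM gave 1. That higher floor tests fewer genes and gave 6 lower in each comparison of the dTF-cKO. Under the stroma scaling these log2 differences past the 2-fold rule changed sign: in the dTF-cKO against the control Fzd1 (0.92), Fzd2 (0.32), Fzd5 (0.89), Fzd8 (0.18) and Wnt2 (0.020), and against the cKO Fzd10 (0.035), Fzd2 (0.73), Fzd8 (0.48), Ror2 (0.35) and Wnt5a (0.74). The values of Wnt2 and Fzd10 amount to no difference, and the sign of that of Wnt2 rests on the prior count. Among differences under 2-fold of the 24 genes with full values, the sign also changed in the dTF-cKO for Wnt5a (1.24), Wnt16 (1.20) and Rspo1 (1.56) against the control and Fzd1 (1.04) and Fzd5 (1.48) against the cKO, and in the cKO against the control for Wnt5a (-0.023) and Rspo3 (-0.23). This follows from its shift of all genes by 2.01, 1.78 and -0.29. Leaving the 20 most abundant genes of each library out of the totals moved the median of all genes by -0.35 in the dTF-cKO against the control and by -0.29 against the cKO, and scaling to totals moved it by -0.13 in the dTF-cKO against the cKO; no log2 difference past the 2-fold rule changed sign under these, DESeq2 1.42.0 size factors or prior counts of 0.5 and 10. Per kilobase of exon, the shares of ligand counts were 28.2% and 20.03% for Wnt7b in the dTF-cKO and cKO, and 1.03%, 4.38% and 9.51% for Wnt5a in the dTF-cKO, cKO and control; Fzd2 took 18.4%, 27.3% and 39.9% of the Frizzled counts. Apart from the stroma scaling, single calls ended for Fzd2 and Wnt5a in the dTF-cKO against the cKO with DESeq2 size factors (-0.99 and -0.98), for Ror2 and Rspo1 in the cKO against the control with library totals, and with a prior count of 10 for Wnt5a, Rspo1 and Wnt7a. No paired analysis was possible because each genotype had 1 library, which also leaves no library to drop. Members under about 10 counts in a library, such as Fzd4, Fzd9, Wnt5b and Rspo2 in the dTF-cKO, have wide intervals.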

Other observations

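The strand setting of the counts is not given in the sources used here, so reads of a gene and of an antisense neighbour cannot be told apart where their exons overlap. Of the 40 genes, 6 share exonic bases with another annotated gene in GENCODE vM21: Fzd5 (17.8% of its exonic bases), Rspo3 (13.1%), Wnt11 (8.80%), Wnt7b (6.61%), Wnt5a (4.58%) and Fzd6 (3.15%). In each case the neighbour lies on the opposite strand. AU022754, the neighbour of Wnt7b, was listed with 2 counts in the dTF-cKO, 6 in the cKO and 1 in the control, far below the 1045, 369 and 44 counts of Wnt7b. Gm2670, beside Wnt5a, had 0, 0 and 1 counts, and Gm26704, beside Fzd6, had 1, 2 and 0. Gm8398, beside Wnt11, had 0 in each library. Gm38058, beside Fzd5, and Gm48159, beside Rspo3, were not among the counted genes, so these largest overlaps could not be checked.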
